A study of Mus musculus with 2 samples.

Results

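Glycolysis splits glucose into pyruvate in the cytosol, lactate dehydrogenase turns pyruvate into lactate, and the pyruvate dehydrogenase complex passes it on to the citric acid cycle in mitochondria, which feeds electrons to the respiratory chain. Many steps of glycolysis are run by isoforms from separate genes, some used in most cells and others known mainly from muscle, brain, liver, blood or sperm. The embryonic heart is known to rely largely on glycolysis, and the adult heart on oxidation in mitochondria. Described here are 46 protein-coding genes, taken from a list of gene symbols out of 21779 in the mouse genome: 26 of glucose uptake, glycolysis and lactate formation, called glycolysis below, and 20 of pyruvate entry and the citric acid cycle. These genes, and the lists of isoforms set against each other below, were chosen with earlier results of these data known.

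Sap130 belongs to the Sin3 corepressor complex, which carries histone deacetylases. Its binding was mapped by ChIP-seq in E12.5 embryonic hearts of the mouse strain C57BL/6. The series holds 1 library made with a Sap130 antibody (Bethyl A302-491A) and 1 input DNA library made without antibody from the same stage, strain and tissue. Its stated aim was to find Sap130 targets in the embryonic heart. The labels name no transgene or treatment and do not say how many hearts were used. The heart was taken whole, so its cell types cannot be told apart in these data. Expression was not measured, and the tissue label could not be checked against marker levels.

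The authors deposited 14886 peak summits, each a single base on build GRCm38, with a −log10 score, from either a p-value or a q-value, for ChIP over input. It reached 428, with a median of 33.3 over the 14881 nuclear summits. The score gives no fold over input, and read depth is unknown, so scores are compared as ranks within this list only. A single ChIP library gives no replicate error, and no test was made. Intervals cover counting error only.

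A gene is called marked where a summit lay inside it or within 1000 bp of a boundary. By this measure 41 of the 46 genes were marked (89.1%, exact 95% interval 76.4 to 96.4), against 55% of all protein-coding genes (11972 of 21779, Wilson interval 54.3 to 55.6). Of the glycolysis genes 21 of 26 were marked (80.8%, exact interval 60.6 to 93.4), and of the citric acid cycle genes 20 of 20 (100%, exact interval 83.2 to 100). These 20 include the cytosolic enzymes of Aco1, Idh1 and Mdh1 and leave out the succinate dehydrogenase genes. The 5 unmarked genes were Hk3, Pgk2, Pgam2, Pklr and Ldhc, each a form of a glycolytic enzyme known mainly from particular tissues: white blood cells (Hk3), sperm (Pgk2 and Ldhc), skeletal muscle and adult heart (Pgam2), and liver and red blood cells (Pklr). Median gene length was 14184 bp in glycolysis, 24011 bp in the cycle and 17217 bp over all protein-coding genes. A longer gene offers more room for a summit, and whether length bears on these counts was not tested. With only summits within 1000 bp of a listed start, 17 of 25 glycolysis genes and 19 of 19 cycle genes were marked. The share was 52.2% over all protein-coding genes with a listed start.

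**Figure D1:**
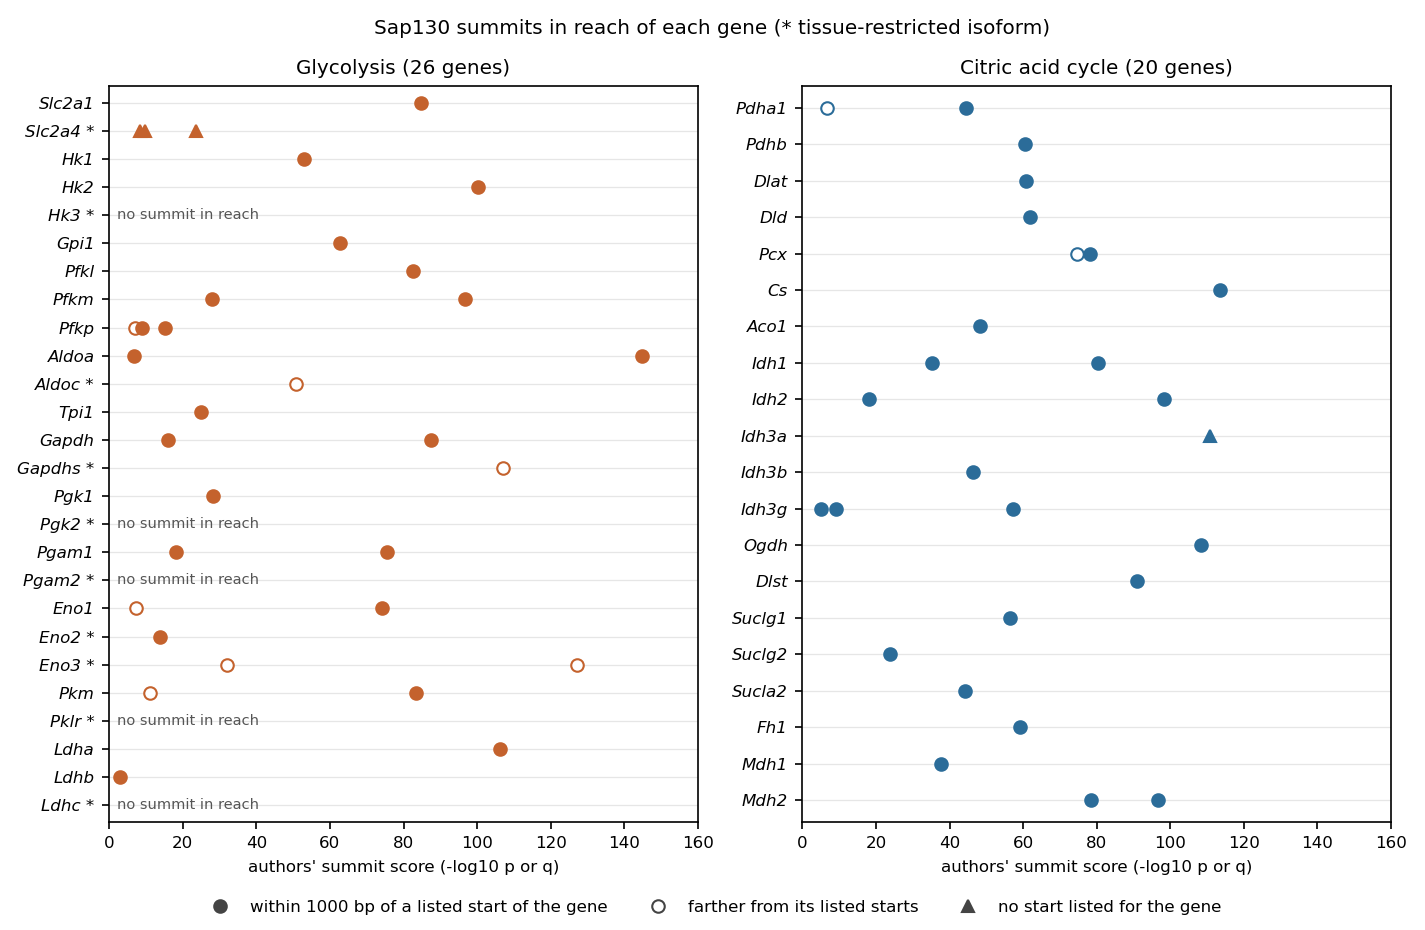
Score of every Sap130 summit in reach of the 26 glycolysis genes (left) and the 20 citric acid cycle genes (right), in pathway order from top to bottom, with 1 symbol per summit and no replicates. The 5 genes without a summit are all starred tissue-restricted isoforms of glycolysis, and open circles mark summits more than 1000 bp from every listed start of the gene.

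Promoter sequences are shown for isoforms with and without a summit. They are taken from RefSeq on GRCm38.p6 and run from 250 bases before a transcript start to 50 after it. A start was listed for 44 of the 46 genes, all but Slc2a4 and Idh3a. Shown are the 3 lactate dehydrogenase genes, the phosphoglycerate kinase and mutase pairs, both starts of Hk1, and the highest-scoring gene of each pathway by a summit at its own start, Aldoa and Cs. Each runs 5′ to 3′ on the strand of the gene, and capitals mark CG dinucleotides.
Ldha, chr7:46845554-46845853, plus strand: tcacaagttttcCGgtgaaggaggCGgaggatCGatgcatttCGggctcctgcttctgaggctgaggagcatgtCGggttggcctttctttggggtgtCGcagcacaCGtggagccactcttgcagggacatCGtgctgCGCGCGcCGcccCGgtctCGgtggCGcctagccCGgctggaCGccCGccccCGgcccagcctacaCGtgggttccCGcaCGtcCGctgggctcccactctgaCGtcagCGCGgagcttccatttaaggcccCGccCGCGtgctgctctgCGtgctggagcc
Ldhb, chr6:142507908-142508207, minus strand: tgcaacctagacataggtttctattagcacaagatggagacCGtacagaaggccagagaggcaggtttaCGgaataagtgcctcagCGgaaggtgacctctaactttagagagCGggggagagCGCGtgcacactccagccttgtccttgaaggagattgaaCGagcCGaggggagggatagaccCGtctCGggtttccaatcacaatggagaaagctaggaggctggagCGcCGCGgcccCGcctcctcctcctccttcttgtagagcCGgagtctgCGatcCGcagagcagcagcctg
Ldhc, chr7:46861013-46861312, plus strand: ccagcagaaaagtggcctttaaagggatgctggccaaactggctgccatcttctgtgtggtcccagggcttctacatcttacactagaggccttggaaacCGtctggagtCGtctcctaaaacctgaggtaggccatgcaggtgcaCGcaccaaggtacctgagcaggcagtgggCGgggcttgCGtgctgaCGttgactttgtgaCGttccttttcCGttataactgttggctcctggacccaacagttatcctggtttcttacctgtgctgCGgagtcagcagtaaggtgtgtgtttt
Pgk2, chr17:40208560-40208859, minus strand: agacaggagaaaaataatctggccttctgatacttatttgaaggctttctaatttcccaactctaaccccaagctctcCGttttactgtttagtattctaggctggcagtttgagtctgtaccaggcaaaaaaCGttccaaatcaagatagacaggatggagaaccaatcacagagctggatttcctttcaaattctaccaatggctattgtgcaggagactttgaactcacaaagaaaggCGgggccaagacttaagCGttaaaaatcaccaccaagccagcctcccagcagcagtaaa
Pgk1, chrX:106186850-106187149, plus strand: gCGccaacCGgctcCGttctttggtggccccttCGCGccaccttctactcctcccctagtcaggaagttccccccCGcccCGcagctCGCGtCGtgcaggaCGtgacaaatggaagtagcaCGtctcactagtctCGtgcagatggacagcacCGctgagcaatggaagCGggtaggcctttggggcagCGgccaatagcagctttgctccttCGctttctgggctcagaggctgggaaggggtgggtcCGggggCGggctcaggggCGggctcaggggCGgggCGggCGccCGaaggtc
Pgam2, chr11:5803747-5804046, minus strand: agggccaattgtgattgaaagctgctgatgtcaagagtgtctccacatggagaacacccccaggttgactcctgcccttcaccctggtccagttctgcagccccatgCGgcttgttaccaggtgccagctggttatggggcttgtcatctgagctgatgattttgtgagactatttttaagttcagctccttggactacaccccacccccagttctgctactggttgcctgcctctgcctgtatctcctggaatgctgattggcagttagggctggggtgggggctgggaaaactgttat
Pgam1, chr19:41911621-41911920, plus strand: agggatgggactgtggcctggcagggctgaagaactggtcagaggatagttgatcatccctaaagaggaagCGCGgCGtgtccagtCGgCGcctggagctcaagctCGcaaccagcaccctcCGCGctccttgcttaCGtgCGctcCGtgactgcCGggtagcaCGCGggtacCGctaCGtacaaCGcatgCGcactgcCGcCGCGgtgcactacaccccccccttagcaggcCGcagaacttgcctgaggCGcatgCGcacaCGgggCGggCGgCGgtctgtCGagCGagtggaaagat
Hk1 upstream start, chr10:62379859-62380158, minus strand: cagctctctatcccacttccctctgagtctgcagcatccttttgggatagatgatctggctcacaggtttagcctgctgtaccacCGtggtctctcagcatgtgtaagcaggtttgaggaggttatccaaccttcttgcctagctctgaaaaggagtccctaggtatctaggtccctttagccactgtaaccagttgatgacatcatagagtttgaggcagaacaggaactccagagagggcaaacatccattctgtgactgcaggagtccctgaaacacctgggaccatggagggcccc
Hk1 internal start, chr10:62340372-62340671, minus strand: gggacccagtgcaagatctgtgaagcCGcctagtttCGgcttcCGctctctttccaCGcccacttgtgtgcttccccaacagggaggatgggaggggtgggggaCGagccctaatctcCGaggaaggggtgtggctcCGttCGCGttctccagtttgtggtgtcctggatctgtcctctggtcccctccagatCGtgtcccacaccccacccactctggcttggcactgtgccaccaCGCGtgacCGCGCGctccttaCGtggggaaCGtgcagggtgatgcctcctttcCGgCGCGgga
Aldoa, chr7:126799129-126799428, minus strand: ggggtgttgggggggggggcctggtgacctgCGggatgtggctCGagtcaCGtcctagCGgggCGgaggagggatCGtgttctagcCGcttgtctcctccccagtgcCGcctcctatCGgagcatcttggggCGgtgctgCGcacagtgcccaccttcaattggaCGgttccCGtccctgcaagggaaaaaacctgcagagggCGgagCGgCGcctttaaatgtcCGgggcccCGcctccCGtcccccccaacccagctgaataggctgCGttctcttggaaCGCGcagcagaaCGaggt
Cs, chr10:128337477-128337776, plus strand: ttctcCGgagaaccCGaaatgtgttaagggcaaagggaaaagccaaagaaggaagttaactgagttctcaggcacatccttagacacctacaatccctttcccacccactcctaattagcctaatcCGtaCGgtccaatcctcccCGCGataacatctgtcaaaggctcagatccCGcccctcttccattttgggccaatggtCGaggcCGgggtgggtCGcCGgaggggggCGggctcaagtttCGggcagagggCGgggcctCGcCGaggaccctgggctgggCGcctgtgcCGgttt

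Among these, Ldha had 30 CG dinucleotides and Ldhb 17, both with a summit within 1000 bp downstream of the start, while Ldhc had 9 and no summit. A second Ldha start, not printed, had 13 and no summit within 1000 bp. Pgk2 held 4 and Pgam2 held 1, both without a summit, whereas Pgk1 held 24 and Pgam1 held 30, both with one. The upstream start of Hk1 had 1 CG dinucleotide and no summit within 1000 bp. Its internal start, which lies 39487 bp farther along the gene, had 20 and a summit.

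Glucose uptake was marked at both transporter genes. Slc2a1, of the transporter Glut1 found in most cells, had 1 summit of score 84.7, 297 bp downstream of its start (chromosome 4, 119108745 to 119137330, summit at 119109042). Slc2a4, of the insulin-responsive transporter Glut4 of muscle and fat, had 3 summits of 8.44, 23.7 and 9.82 around its right-hand boundary. The highest of them lay 181 bp inside the gene. Its score stood at percentile 24.7 among the highest scores of the 11972 marked genes, and that of Slc2a1 at percentile 78.7.

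Hexokinases commit glucose to the cell by phosphorylation. Hk2, the insulin-regulated form of muscle and heart, had 1 summit of score 100.3, and Hk1, the form of most tissues, had 1 of 53.0. The Hk2 summit was 753 bp downstream of its only listed start (chromosome 6, 82725025 to 82774454, summit at 82773701). In Hk1 the summit was 499 bp downstream of the internal start and 39998 bp from the nearest gene boundary (chromosome 10, 62268855 to 62379920, summit at 62339922), so that Hk1 is marked only because summits inside a gene count. Hk3, known mainly from white blood cells, had none, with the nearest summit 34890 bp away.

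The isomerase and the 3 phosphofructokinase genes were all marked, at unequal scores. Gpi1, glucose phosphate isomerase, had 62.7. Of the phosphofructokinase genes, whose enzyme sets the pace of glycolysis, Pfkl (liver type) had 82.6, Pfkm (muscle type) 96.7 and Pfkp (platelet type) 3 summits of at most 15.1. The Pfkm summit of 96.7 lay 580 bp downstream of the first listed Pfkm start, but 206 bp downstream of the start of Senp1, a SUMO protease gene that begins beside it. A second Pfkm summit of 27.8 lay 159 bp downstream of the nearest of its internal starts and was in reach of no other gene.

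Aldolase cleaves the phosphorylated sugar. Aldoa, the form of muscle and most tissues, had a summit of 144.7, the highest of all 46 genes and at percentile 96.4 of marked genes (chromosome 7, 126795234 to 126800994, summit at 126798983). It lay 195 bp downstream of the most internal of 3 listed starts, where the promoter printed above has 23 CG dinucleotides. The outermost listed start has 0, and the only summit within 1000 bp of it was one of 6.84. Aldoc, the brain form, was marked by 1 summit of 50.6 that lay outside it, 4417 bp from its nearest listed start and 193 bp downstream of the start of its neighbour Pigs, of GPI anchor attachment.

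The later steps of glycolysis follow. Tpi1, triose phosphate isomerase, which has no second form in the list, had a low score of 25.1. Gapdh, the form of all tissues, had summits of 87.5 and 15.9, at 544 bp downstream and 97 bp upstream of its start. Gapdhs, the sperm form, was marked by a summit of 107.0 that lay outside the gene, 10085 bp from its nearest start and 212 bp downstream of the start of Tmem147. Pgk1, the X-linked form of most cells, had 28.3, at 816 bp downstream of its start, and Pgk2, the sperm form, had the nearest summit 726256 bp away. Pgam1 had 75.5 and 18.2, while Pgam2, the form of mature skeletal and heart muscle, had the nearest 12975 bp away.

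Among enolases, Eno1, the form of most cells, had summits of 74.3 and 7.32. Eno2, the neuronal form, had 1 summit of 13.9, 294 bp downstream of its own start. Eno3, the muscle form, had 127.1 and 31.9, both inside the gene as annotated but 2743 and 1224 bp upstream of its only listed start. The first lay 217 bp downstream of the start of Pfn1, which encodes the actin-binding protein profilin. Of the pyruvate kinases, which make pyruvate, Pkm had 83.4, at 240 bp downstream of the nearer of its starts. A second Pkm summit of 11.0 was 995 bp outside the gene and 213 bp downstream of the start of Gramd2. Pklr, of liver and red blood cells, had the nearest summit 13192 bp away.

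The lactate dehydrogenase genes differed widely. Ldha, whose subunit predominates in muscle and in cells that make lactate, had 106.2, at 189 bp downstream of a start inside the annotated gene (chromosome 7, 46842274 to 46855627, summit at 46845993). Ldhb, whose subunit predominates in the adult heart, had a single summit of 3.04, at percentile 0.150 of the marked genes and 0.349 of all summits (chromosome 6, 142490249 to 142507957, summit at 142507314). Ldhc, the sperm form, begins next to Ldha on chromosome 7, and the nearest summit to it was that of Ldha, 15270 bp away.

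**Figure D2:**
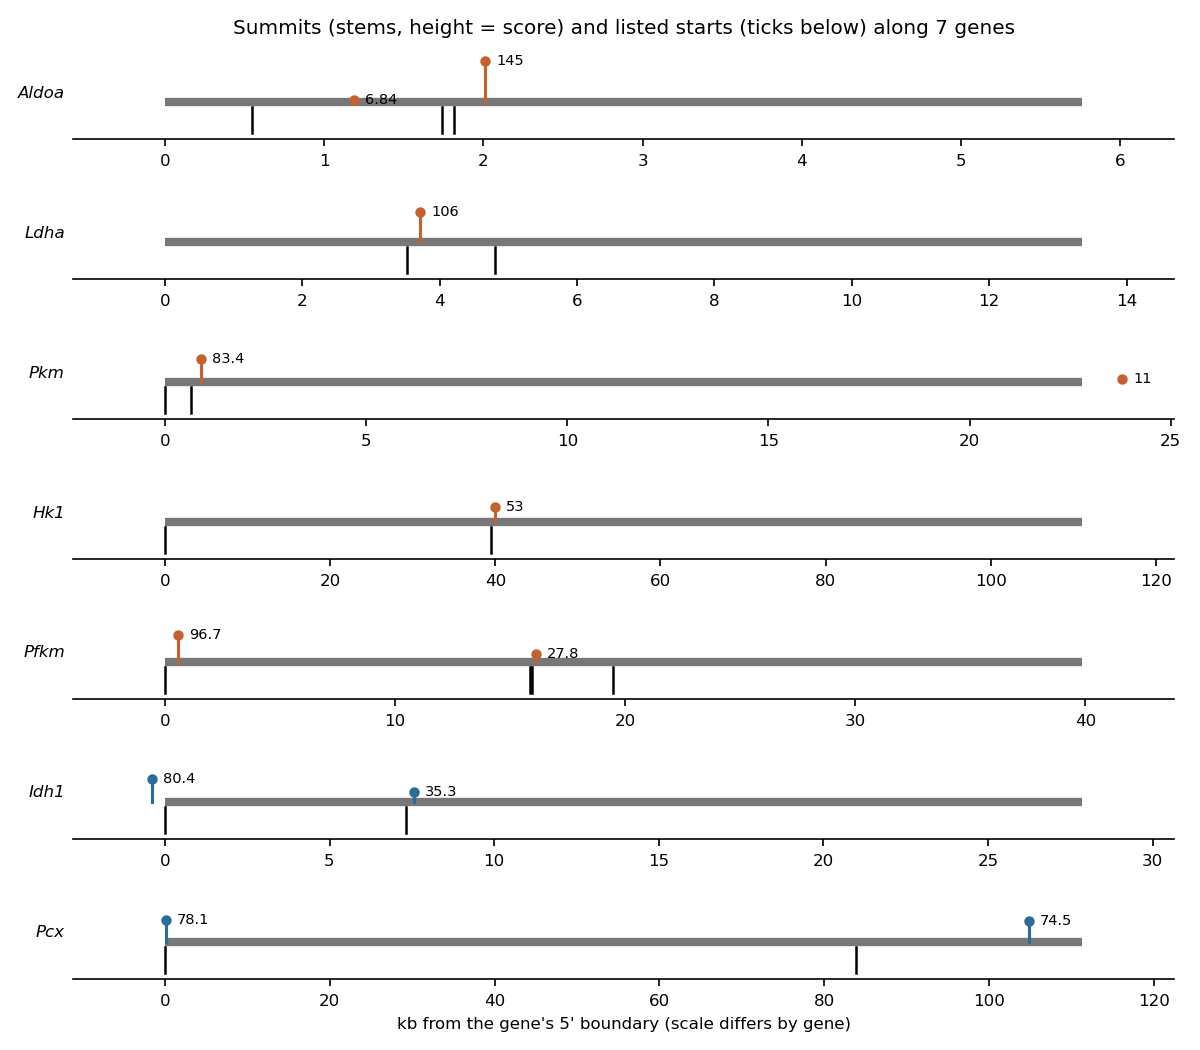
Summits (stems, with the score as height and number) and listed transcript starts (ticks below the gene bar) along 7 genes with several starts, in kb from the 5′ boundary of each gene, with glycolysis genes above and citric acid cycle genes below. The highest summits of Aldoa (144.7), Ldha (106.2) and Hk1 (53.0) sit just downstream of an internal start, and the second Pkm and Pcx summits are far from any start of their gene.

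The 10 tissue-restricted isoforms can be set against the 11 broadly used forms of the same steps, which were Slc2a1, Hk1, Hk2, Aldoa, Gapdh, Pgk1, Pgam1, Eno1, Pkm, Ldha and Ldhb. Hk2 was put among the broad forms although it is known best from muscle and heart, and the phosphofructokinase genes Pfkl, Pfkm and Pfkp, all 3 marked, were put in neither class and left out. Of the restricted forms 5 of 10 were marked (50.0%, exact interval 18.7 to 81.3), and of the broad forms 11 of 11 (100%, exact interval 71.5 to 100), against 55% of all protein-coding genes. The share of restricted forms was close to that of all genes. Counting only summits within 1000 bp of a listed start of the gene itself, Eno2 alone was marked among the 9 restricted forms with a listed start (11.1%, exact interval 0.281 to 48.2), against 11 of 11 broad forms and 52.2% of the 17492 protein-coding genes with a listed start. The marks on Aldoc, Gapdhs and Eno3 were thus not near their own listed starts, and Slc2a4 had no listed start to judge by. Scores of the broad forms were not all high, with 3.04 at Ldhb and 28.3 at Pgk1.

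Pyruvate enters the cycle through the pyruvate dehydrogenase complex, of which 4 subunit genes are among the 46. Dld, shared with other dehydrogenase complexes, had 61.9, Dlat 60.7, Pdhb 60.5 and the X-linked Pdha1 44.4. All 4 summits lay inside the gene, at 308, 430, 284 and 249 bp downstream of the start. Pdhx, a further subunit gene outside the 46, had 16.4 at most. Pcx, pyruvate carboxylase, which refills the cycle with oxaloacetate, had 78.1 at 152 bp downstream of its first start. Its second summit of 74.5 lay deep in the gene, 409 bp downstream of the start of Lrfn4, and the second listed Pcx start, with 5 CG dinucleotides, had none within 1000 bp.

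In the cycle itself Cs, Idh3a and Ogdh had the highest scores of the 20 genes. Cs, citrate synthase, had 113.6, at 225 bp downstream of its start (chromosome 10, 128337727 to 128362482, summit at 128337952). Idh3a, the catalytic subunit of the NAD-dependent isocitrate dehydrogenase, had 110.9, and its partner subunits Idh3b and Idh3g had 46.4 and 57.2. Ogdh and Dlst, of the oxoglutarate dehydrogenase complex, had 108.3 and 91.1. Both summits lay within 250 bp of a listed start, that of Ogdh 36 bp upstream of one among 6 starts. The cytosolic enzymes in the list were marked too: Aco1, cytosolic aconitase and iron regulatory protein, had 48.2, and Idh1, the NADP-dependent form of the cytosol, had 80.4 and 35.3, against 98.2 and 18.0 for its mitochondrial counterpart Idh2.

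The succinyl-CoA ligase genes Suclg1, Sucla2 and Suclg2 had 56.5, 44.2 and 23.7. The subunits Sucla2 and Suclg2 give the enzyme its preference for ADP or GDP, and Suclg2 was the lowest of the 20 genes. Fh1, fumarase, had 59.2. Mitochondrial Mdh2 had 96.7 at 150 bp downstream of its start and a second summit of 78.4 upstream, while cytosolic Mdh1 had 37.6 only.

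The count of marked genes depended on which summits were let in. With a reach of 500 bp it was 40 of 46, against 54.4% of all protein-coding genes, and with 2500 bp it was 41, against 55.9%. Summits within 1000 bp of a gene boundary alone marked 36 of 46, against 48.4%. This setting loses Aldoa, Eno3, Hk1, Idh2 and Ldha, whose summits lie farther inside the gene as annotated. Summits in reach of a single protein-coding gene marked 33 of 46, against 42.4%. At or above the median score 34 of 46 were marked, against 36%, and at or above the upper quartile 20 of 46, against 19.5%. Within 1000 bp of a listed start the count was 36 of 44, against 52.2% of genes with a listed start.

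Several marks belonged as much to a neighbour. Of the 41 marked genes, Slc2a4 and Idh3a had no listed start and were not judged here. Among the others, 7 had their highest summit nearer to a listed start of another gene, namely Pfkm, Aldoc, Gapdhs, Eno3, Idh1, Idh3g and Mdh1. The only Mdh1 summit lay 491 bp upstream of its start and 144 bp downstream of that of Wdpcp, a planar polarity gene. For Idh1 the summit of 80.4 was 387 bp upstream of its first start and 181 bp downstream of that of Pikfyve, a lipid kinase gene, whereas the summit of 35.3 was 237 bp downstream of the internal Idh1 start. The Idh3g summit of 57.2 was 296 bp downstream of the start of Ssr4, and the one 416 bp downstream of the Idh3g start had only 9.20. Mdh2 had a summit at each side, with the upstream one 141 bp downstream of the start of Styxl1. Over the 55 summits of genes with a listed start, the nearest start belonged to a neighbour for 11, at 141 to 856 bp downstream of it with a median of 212 bp.

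Measured from the gene's own starts, the highest summit within 1000 bp lay downstream for 17 of 17 glycolysis genes and for 15 of 19 cycle genes, against 82.6% of 9128 protein-coding genes. The median position was 307 bp downstream in glycolysis (quartiles 240 and 544 bp), 225 bp in the cycle (151 and 282.5 bp) and 179 bp over all these genes (104 and 244 bp). From the nearest start, the glycolysis genes had the farther summits, with Pgk1 at 816 bp, Hk2 at 753 bp, Ldhb at 643 bp, Pfkm at 580 bp and Gapdh at 544 bp. No cycle gene exceeded 483 bp downstream by this measure, but the Ogdh summit lay 537 bp downstream of the first Ogdh start. The Pfkm summit at 580 bp is the one beside the start of Senp1, and the Pfkm summit in reach of no other gene lay at 159 bp. The exceptions upstream were Mdh1, Idh3g, Idh1 and Ogdh, described above. The summits of Mdh1, Idh3g and Idh1 counted here were nearer to a start of a neighbour, and Idh3g and Idh1 also had lower summits downstream of an own start.

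**Figure D3:**
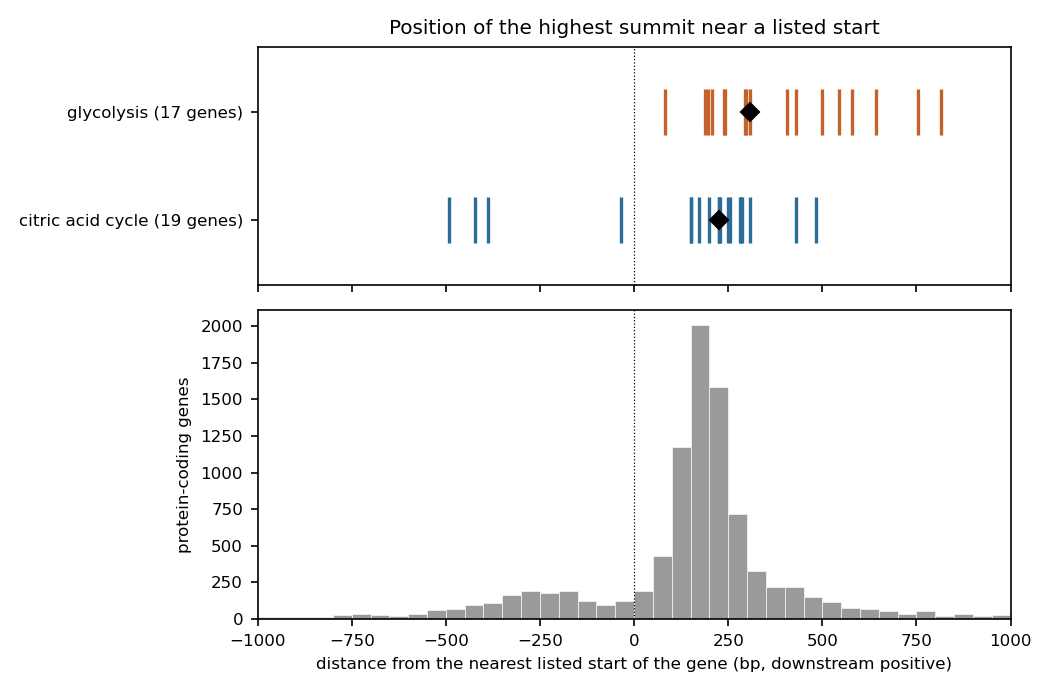
Distance of the highest summit within 1000 bp of a listed start from the nearest start of the gene, in bp with downstream positive, for 17 glycolysis and 19 citric acid cycle genes (upper panel, 1 tick per gene, diamonds are medians of 307 and 225 bp) and for 9128 protein-coding genes in bins of 50 bp (lower panel). The glycolysis ticks reach 816 bp downstream, and 4 cycle ticks lie upstream of the start.

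Among marked genes the median of the highest score was 75.5 for glycolysis (quartiles 28.3 and 96.7, range 3.04 to 144.7) and 60.6 for the cycle (47.7 and 92.5, range 23.7 to 113.6). It was 62.7 over the 41 genes and 48.9 over all marked protein-coding genes (23.9 and 78.6). Glycolysis had both the highest and the lowest score of the 41. Scores above the median of all marked genes were found at 15 of 21 glycolysis genes and at 14 of 20 cycle genes. By definition of the median, 5983 of the 11972 marked protein-coding genes lay above it. Pfkm, Aldoc, Gapdhs and Eno3 of glycolysis and Idh1 and Idh3g of the cycle were above it only by a summit nearer to a neighbour's start. A second or further summit was present at 36.6% of the 41 genes and at 28.9% of all marked genes.

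**Figure D4:**
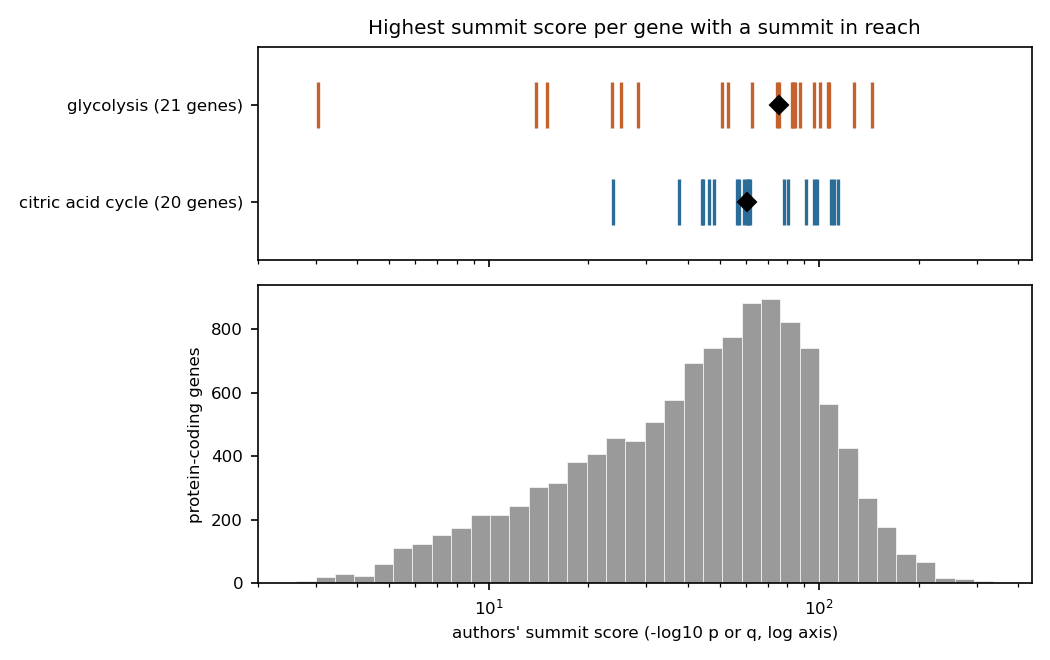
Highest summit score per gene on a log axis, for 21 marked glycolysis and 20 marked citric acid cycle genes (upper panel, 1 tick per gene, diamonds are medians of 75.5 and 60.6) and for the 11972 marked protein-coding genes (lower panel, genes per bin of equal width on the log scale). The glycolysis ticks spread from 3.04 to 144.7, wider than the cycle ticks from 23.7 to 113.6.

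CG content of the promoter, which the rule did not use, went with the marks. The 65 listed promoters of the 44 genes held a median of 21 CG dinucleotides where a summit lay within 1000 bp of the start (49 promoters, quartiles 15 and 24) and 4 where none did (16 promoters, quartiles 3 and 7.25). Over all protein-coding promoters the medians were 23 with a summit (10715 promoters) and 4 without (10548 promoters). All 38 promoters of these genes with 15 or more CG dinucleotides had a summit within 1000 bp, as had 3 of the 18 with 9 or fewer, against 88.2% and 7.86% of all protein-coding promoters with such counts. Those 3 were the outermost Aldoa start with 0, the first Pfkm start with 4 beside Senp1, and another Pfkm start with 9. Over all protein-coding promoters the share was 2.12% at 0 to 4 CG dinucleotides and 92.5% at 25 or more. Starts of 1 gene can share a summit, so these promoters are not independent.

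**Figure D5:**
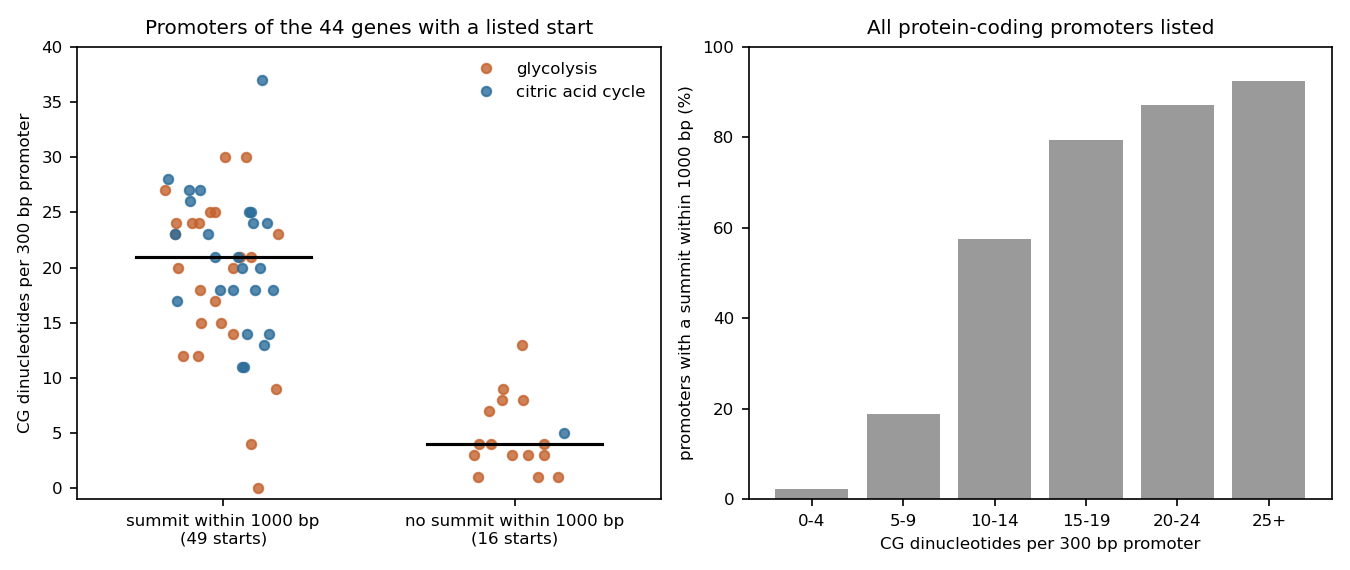
CG dinucleotides per 300 bp promoter for the listed starts of the 44 genes, with a summit within 1000 bp (49 starts) or without (16 starts), where black lines are medians of 21 and 4 (left), and the share of all protein-coding promoters with a summit within 1000 bp by CG count (right, bars from 0). Promoters without a summit hold at most 13 CG dinucleotides, and 15 of those 16 are of glycolysis genes.

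Short motifs were searched in the same promoters on both strands. The core ACGTG is read by hypoxia-inducible and some E-box factors. It stood in 15 of 39 glycolysis promoters (38.5%) and in 10 of 26 cycle promoters (38.5%), against 20.9% of all 21263 protein-coding promoters. Of promoters with a summit, 22 of 49 for these genes (44.9%) and 27.4% for all protein-coding genes held it. All 6 promoters of Ogdh, only some of which overlap each other, are among the 10 and the 22. Without that gene the cycle had 4 of 20. Among the 15 are 2 overlapping promoters of Aldoa. The longer E-box CACGTG, which contains ACGTG, stood in 2 glycolysis and 4 cycle promoters, of which 1 was not of Ogdh, against 7.84% of all. The printed Ldha promoter held CACGTG at 2 positions. The GC box GGGCGG was in 16 of 39 glycolysis promoters (41.0%) and 18 of 26 cycle promoters (69.2%), against 46.2% of all and 71.4% of those with a summit. Among the 49 promoters of these genes with a summit, 65.3% held it. Of the 16 without a summit, 15 were of glycolysis genes, so the pathway shares are not of like sets. CCAAT was in 38.5% of glycolysis and 65.4% of cycle promoters, the second share being 55% without Ogdh, against 38.2% of all. Of promoters with a summit, 55.1% for these genes, Ogdh included, and 37.5% for all protein-coding genes held CCAAT. TGACGTCA, the cAMP response element, was in 1 and 4, among them 3 overlapping promoters of Ogdh, and in 2.23% of all. TATAAA was in 3 and 0, against 12.6% of all. The Ets motif CCGGAAG was in 1 and 3, against 11.6% of all. The Nrf1 motif, GCGC and TGCGC with 1 base of any kind between them, was in 3 and 2, against 6.38% of all. Among promoters with a summit only, TATAAA was in 4.08% for these genes and 5.37% for all protein-coding genes. The Ets shares were then 6.12% and 19.8%, and the Nrf1 shares 8.16% and 11.6%. A match is a description of these letters only, and several promoters of 1 gene overlap.

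Of 32 other genes around these pathways, 25 were marked (78.1%, exact interval 60.0 to 90.7), against 55% of all protein-coding genes, with a median highest score of 41.3, against 48.9 over all marked protein-coding genes. The highest were Adpgk, an ADP-dependent glucokinase, with 161.0, Pgam5, a mitochondrial phosphatase named for its likeness to phosphoglycerate mutase, with 157.0, and Pdp1, a phosphatase that switches pyruvate dehydrogenase on, with 139.1. Unmarked were 7 genes, among them Slc2a2, the glucose transporter of liver and pancreas, Hkdc1, Bpgm, of red blood cells, Pfkfb4 and Fbp1, of gluconeogenesis. The succinate dehydrogenase genes, chosen after their values were seen, were all marked, with 64.9 at Sdhc, 55.2 at Sdhd, 36.5 at Sdha and 27.9 at Sdhb.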

How the data were processed

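Sap130 ChIP and input DNA from E12.5 mouse hearts were sequenced once each. Per the submitters' processing notes, Bowtie 1.1.2, MACS2 2.1.0.20140616 and build GRCm38 (mm10) were used. Their settings were not given in the sources used here. In the 1 list of summits that the authors deposited, each score is a −log10 of a p-value, or else of a q-value. Such a score rises with depth as well as enrichment, and reads with several matches may be lost at genes with near-identical copies.

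Genes came from a RefSeq table of GRCm38.p6, without 121 protein-coding genes that lay on the mitochondrial genome or on no named chromosome, or that began below 3 Mb on any chromosome but Y. Starts, strand and promoters came from RefSeq promoters of the same build, not listed for every gene. A summit in reach of several genes counted for each. The 5 mitochondrial summits were left out.

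The genes, lists, motifs and settings were chosen with earlier results of these data known. All 46 genes are reported, and of 32 other genes the 3 of highest score and the first 5 unmarked in listed order. The 4 succinate dehydrogenase genes were added later, and Pdhx is also given outside this rule. Some other pathway genes are not reported here. Computation used Python 3.11.15, pandas 2.3.3, numpy 2.4.6, matplotlib 3.10.9 and scipy 1.17.1. The assignment of summits to genes was tested on simulated summits.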

Additional observations from a re-analysis of the deposited data

How the results depend on the processing

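Counting only summits at or above the upper quartile of the score, 65.2, left 20 of 46 genes marked, 12 of 26 in glycolysis and 8 of 20 in the citric acid cycle, against 19.5% of all protein-coding genes. The tissue-restricted isoforms marked were then 2 of 10, Gapdhs and Eno3, against the same 19.5%. With summits at or above the median score of 33.3 they were 3 of 10, with Aldoc added, against 36%. The highest summits of these 3 genes were nearer to the start of a neighbour. Only 1 tissue-restricted isoform was marked with summits in reach of a single gene, against 42.4% of all protein-coding genes. With summits within 1000 bp of a listed start it was 1 of 9, against 52.2% of genes with a listed start. All other counts stayed within 1.5 times the reported ones under these settings, with a reach of 500 or 2500 bp, and with summits near a boundary only. Median scores were tried with both reaches, near a boundary and in reach of 1 gene, and ran from 62.7 to 79.1 in glycolysis, from 59.8 to 60.6 in the cycle and from 60.6 to 68.5 over all the genes. Without Hk2, a setting chosen after seeing the data, 10 of 10 broad forms were marked. Summits in reach of 1 gene alone unmarked Aldoc, Dlst, Eno2, Eno3, Gapdhs, Idh3g, Mdh1 and Mdh2. No paired analysis was possible because there is 1 library of each kind and no test. Depth is unknown, so a gene without a summit may hold binding too weak to be called.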
